A study of Saccharomyces cerevisiae with 7 samples.

Results

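ICL1, MLS1, PCK1, FBP1, PYC1 and PYC2 encode the key enzymes of the glyoxylate cycle and of gluconeogenesis in the budding yeast Saccharomyces cerevisiae. Their RNA was followed as a culture used up its glucose. The 6 genes were chosen by function and symbol and were found on 7 spots, PYC2 having 2 and every other gene 1. They are 6 of 5470 named genes on the arrays.

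Yeast ferments glucose to ethanol first and then, in the diauxic shift, turns to respiring the ethanol. To grow on a 2-carbon compound the cell must make sugars from it. The glyoxylate cycle joins 2-carbon units into 4-carbon acids and skips the steps of the tricarboxylic acid cycle that release carbon dioxide. Gluconeogenesis then runs glycolysis backwards, with its own enzymes at the steps that glycolysis cannot reverse. Genes of both routes are textbook examples of glucose repression, and the enzymes are also broken down when glucose returns.

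The study hybridised 7 arrays with 2 channels each, 1 array per time point and no replicates. Channel 1 always held total RNA of one and the same state, 0.14 OD and 19 g/L glucose, as the common reference. The other channel held the culture sampled at 0 h (0.14 OD, 19 g/L glucose), 9.5 h (0.46 OD, 18.7 g/L), 11.5 h (0.80 OD, 17.6 g/L), 13.5 h (1.8 OD, 14.0 g/L), 15.5 h (3.7 OD, 7.5 g/L), 18.5 h (6.9 OD, 0.2 g/L) and 20.5 h (7.3 OD, 0 g/L). The labels name no strain, medium or flask, so neither the genotype nor whether the samples shared a flask is known here. RNA came from whole cultures, so more cells that express a gene and more RNA per cell cannot be told apart.

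Values are log2 ratios with the median of every array set to 0, so that 1 stands for 2-fold above the reference. The labels do not state the direction; culture over reference is likely, and turning it would turn the sign of every value given here. The only replicate measure is the SD between spots of one gene, from 75 genes with several spots. On the log2 scale it was, in time order, 0.21, 0.41, 0.23, 0.19, 0.34, 0.45 and 0.36. It leaves out the spread between cultures and between arrays.

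All 6 genes stood more than 2-fold above the reference at 20.5 h, when no glucose was left, and the highest value of any of them on the earlier arrays was 0.70, that of MLS1 at 18.5 h. The 4 enzymes of the glyoxylate cycle and gluconeogenesis were 11.4-fold to 18.0-fold above the reference at 20.5 h, and the pyruvate carboxylases 3.15-fold and 4.11-fold. Of 5293 genes with a value at 20.5 h, 10.8% were at least 2-fold higher, against 6 of 6 here. ICL1, PCK1 and FBP1 had the 3 highest ratios of all named genes on that array, where 1 spot with no gene symbol was higher. At 18.5 h, with 0.2 g/L glucose left, 11.6% of genes were at least 2-fold higher and 0 of these 6.

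**Figure D1:**
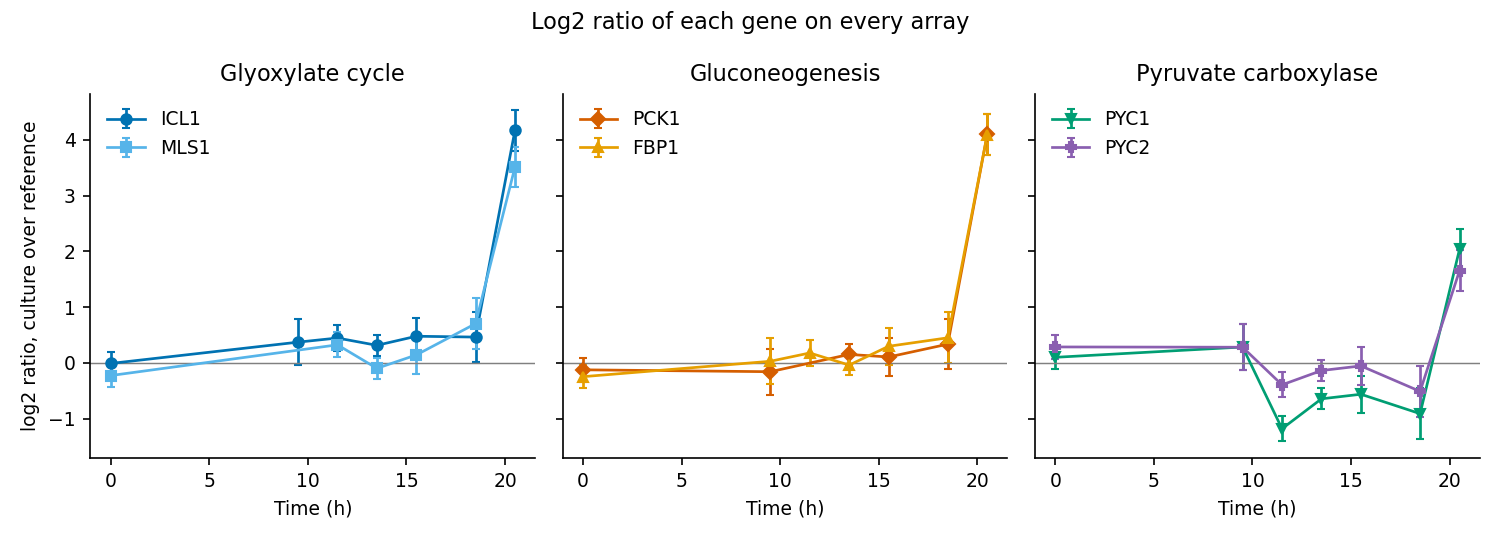
Centred log2 ratio of each gene (vertical axis) against time in hours, in 3 panels by role; points are single arrays, bars are the SD between spots of one gene on that array, and lines pass over the blanks of MLS1 at 9.5 h and PCK1 at 11.5 h. The glyoxylate and gluconeogenic enzymes lie between -0.25 and 0.70 up to 18.5 h and between 3.51 and 4.17 at 20.5 h, while PYC1 is below the reference from 11.5 h to 18.5 h and at 2.04 at 20.5 h.

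ICL1 (YER065C) encodes isocitrate lyase, which splits isocitrate into succinate and glyoxylate and opens the glyoxylate cycle. In time order from 0 h to 18.5 h its log2 ratio was -0.01, 0.37, 0.45, 0.32, 0.48 and 0.46, and 20.5 h gave 4.17. The last array alone stood apart. Over the first 6 arrays the mean was 0.35 ± 0.18 (SD over 6 arrays of different times). The step from 18.5 h to 20.5 h was 3.71 on the log2 scale.

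MLS1 (YNL117W) encodes malate synthase, which joins glyoxylate to acetyl-CoA and closes the bypass. Its log2 ratio was -0.23 at 0 h, was blank at 9.5 h, then took the values 0.33, -0.10, 0.14 and 0.70 from 11.5 h to 18.5 h, and 20.5 h gave 3.51. At 18.5 h MLS1 had the highest ratio of the 6 genes, although its rank on that array was only 1088 of 5465. Its step from 18.5 h to 20.5 h was 2.81 on the log2 scale.

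Both enzymes have a relative in the genome with another job. ICL2 encodes a mitochondrial 2-methylisocitrate lyase, and its log2 ratio was 0.79 at 18.5 h and 1.26 at 20.5 h. DAL7 encodes a malate synthase linked to the use of allantoin, and its log2 ratio was 0.10 at 18.5 h and 0.35 at 20.5 h. On the 20.5 h array the log2 ratio of ICL1 was thus 2.91 above that of ICL2, and that of MLS1 was 3.16 above that of DAL7. These differences were not tested, and they exceed the SD between spots on that array. Whether RNA of one relative bound the other's spot was not tested.

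PCK1 (YKR097W) encodes phosphoenolpyruvate carboxykinase, which turns oxaloacetate into phosphoenolpyruvate and commits carbon to gluconeogenesis. Its log2 ratio was -0.12 at 0 h and -0.16 at 9.5 h, was blank at 11.5 h, and was 0.15, 0.11, 0.34 and 4.10 on the arrays from 13.5 h to 20.5 h. On every earlier array with a value it was between 0.897-fold and 1.26-fold of the reference. Its step from 18.5 h to 20.5 h, 3.76 on the log2 scale or 13.6-fold, was the largest of 5288 named genes.

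FBP1 (YLR377C) encodes fructose-1,6-bisphosphatase, which removes a phosphate where glycolysis adds one. The 7 arrays in time order gave log2 ratios of -0.25, 0.03, 0.18, -0.04, 0.30, 0.45 and 4.10. Like PCK1 it was high on the last array only, 12.5-fold above its value at 18.5 h. PCK1 and FBP1 differed at 20.5 h by 0.003 on the log2 scale.

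PYC1 (YGL062W) and PYC2 (YBR218C) encode isozymes of pyruvate carboxylase, which makes oxaloacetate from pyruvate and refills the tricarboxylic acid cycle. The enzyme serves growth on glucose as well as gluconeogenesis from pyruvate, and both genes were below the reference on the arrays from 11.5 h to 18.5 h. At 13.5 h and 15.5 h PYC2 was below it by less than the SD between spots. PYC1 had log2 ratios of 0.10 at 0 h and 0.29 at 9.5 h, then -1.18, -0.64, -0.56 and -0.91 from 11.5 h to 18.5 h, and finally 2.04. At 11.5 h PYC1 was 2.26-fold below the reference and ranked 5299 of 5311 genes, on an array where 0.414% of genes were at least 2-fold lower. It was the only such value among the 6 genes on the first 6 arrays.

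The mean of the PYC2 spots was 0.29 and 0.28 on the first 2 arrays, then -0.39, -0.14, -0.05 and -0.51, and 1.65 on the last. PYC2 thus lay below the reference on the same 4 arrays as PYC1 and above it on the same 3. Of these 3, the 0 h array had the same OD and glucose in both channels, so its signs are not read as changes. Some of these signs rest on values within the SD between spots. This holds for PYC2 at 9.5 h, 13.5 h and 15.5 h, and for PYC1 at 0 h and 9.5 h. The PYC2 spots agreed at 20.5 h, at 1.65 and 1.66, and lay further apart at 18.5 h, at -0.75 and -0.27. The last step of PYC1 was 7.72-fold, the fourth largest of 5288 genes, and that of PYC2 4.48-fold, at rank 18. As the proteins are close paralogues, the RNA of one may have bound the spot of the other, which was not tested.

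In the last interval these genes had some of the largest increases on the arrays. Ranked by the change in ratio from 18.5 h to 20.5 h, PCK1, ICL1, FBP1, PYC1 and MLS1 took places 1 to 5 among 5288 named genes. Only PCK1, ICL1 and FBP1 reached 8-fold, 0.0567% of genes, and 3.18% of genes reached 2-fold, against 6 of 6 here. The 5th and 95th percentiles of that step over all genes were -0.78 and 0.83 on the log2 scale, with an SD of 0.53. Over all 6112 spots with both values, spots with no gene symbol included, 2 spots exceeded PCK1, 3 exceeded ICL1, 4 exceeded FBP1, 8 exceeded PYC1 and 11 exceeded MLS1. The step rests on 2 arrays, and with 1 array per time it has no test.

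**Figure D2:**
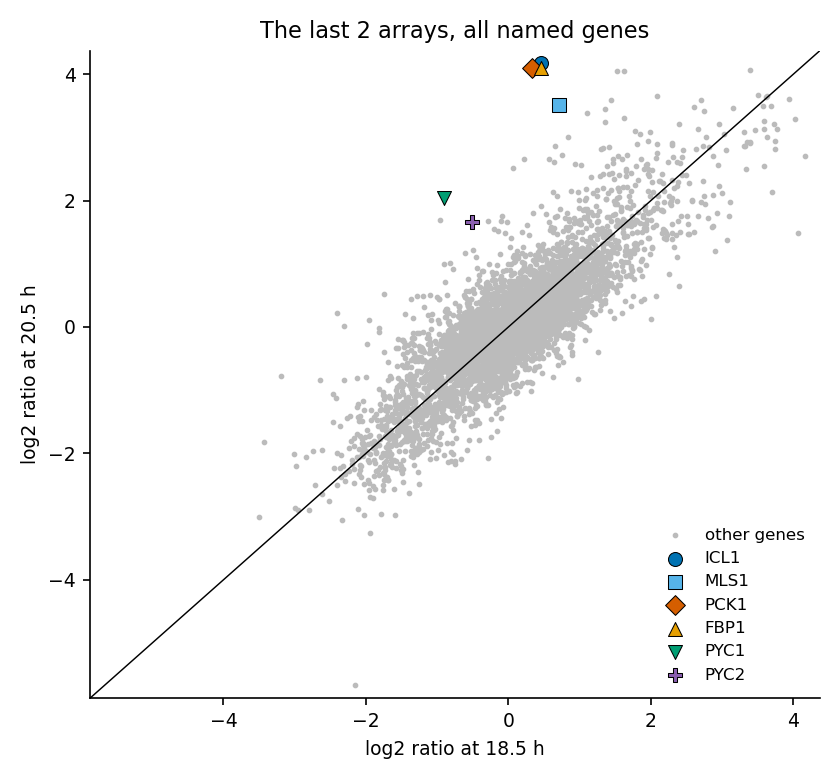
Log2 ratio at 20.5 h (vertical axis) against 18.5 h (horizontal axis) for every named gene with both values; the line marks equal values. The 6 genes lie far above the line, ICL1, PCK1 and FBP1 between 4.10 and 4.17 at 20.5 h from 0.34 to 0.46 at 18.5 h.

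Earlier intervals held no such change. From 15.5 h to 18.5 h, when glucose went from 7.5 to 0.2 g/L, ICL1 changed by -0.02, MLS1 by 0.56, PCK1 by 0.23, FBP1 by 0.15, PYC1 by -0.35 and PYC2 by -0.46 on the log2 scale. All lay well inside the range from -1.28 to 1.37 that held the 5th to 95th percentiles of genes in that interval. From 9.5 h to 11.5 h PYC1 changed by -1.47 and PYC2 by -0.67, both below the 5th percentile of -0.53, while ICL1 changed by 0.07 and FBP1 by 0.15. The 9.5 h array, with an SD between spots of 0.41, was the noisiest of the early arrays.

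**Figure D3:**
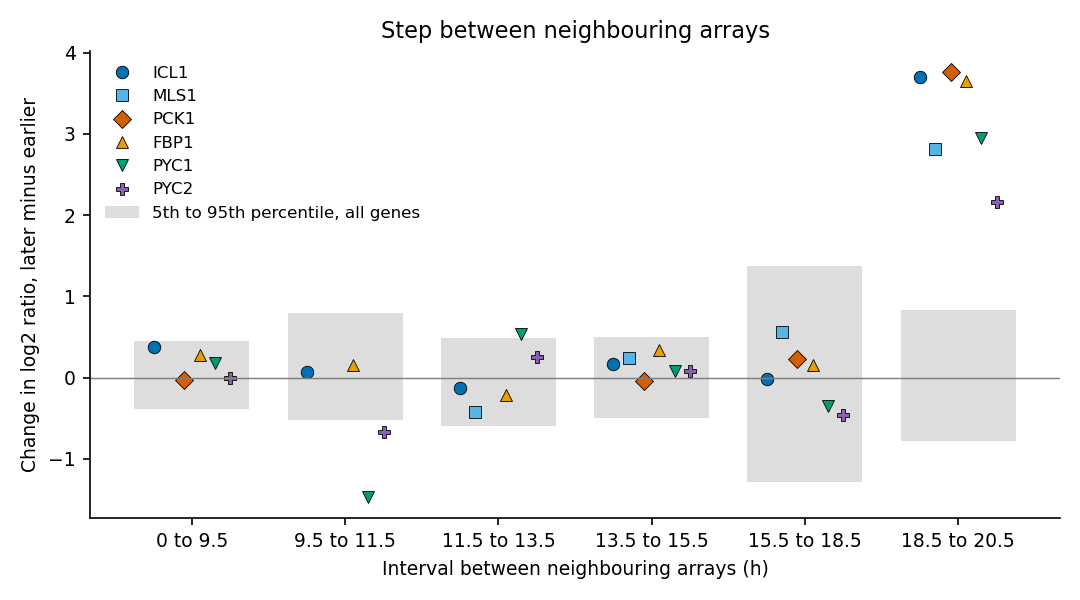
Change in log2 ratio between neighbouring arrays (vertical axis, later minus earlier) for each interval in hours; symbols are the 6 genes and grey bars span the 5th to the 95th percentile of all genes. The genes lie within or near the bars until 18.5 h except PYC1 and PYC2 from 9.5 h to 11.5 h, and between 2.16 and 3.76 in the last interval, where the bar ends at 0.83.

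The design was tested as a trend, a limma regression of the log2 ratio on glucose use (the part of the initial glucose that had gone), over 5456 genes with at least 5 values and with Benjamini-Hochberg adjustment. The coefficient is the fitted difference in log2 ratio between no glucose used and all of it used. FBP1 rose, by 2.30 ± 0.81 (SE, 7 arrays; adjusted p = 0.0467). That call was lost with robust eBayes (adjusted p = 0.0591), quantile normalization (0.0904), hours (0.137) or log2 OD (0.138) in place of glucose use, without the 0 h and 9.5 h arrays (0.149) and in 5 of 7 fits that left out 1 array. MLS1 had a fitted change of 2.19 ± 0.77 (6 arrays, the 9.5 h blank left out; adjusted p = 0.0502), PCK1 of 2.33 ± 0.94 (6 arrays, the 11.5 h blank left out; adjusted p = 0.0773) and ICL1 of 2.05 ± 0.82 (7 arrays; adjusted p = 0.0722), and these did not pass 0.05. PYC1 was at 0.77 ± 0.74 (adjusted p = 0.428) and PYC2 at 0.49 ± 0.51 (adjusted p = 0.467). With quantile normalization, fitted on genes without blanks, ICL1 was at 1.04, FBP1 at 1.44 and PYC2 at 0.13. Without the 0 h and 9.5 h arrays PYC1 was at 1.82 and PYC2 at 1.03, and with log2 OD they were at 0.42 and 0.30. All 6 fitted changes were above 0. So 1 of 6 rose and 0 fell, beside 19.0% of all tested genes that rose and 18.4% that fell, and the share of these genes that passed was not far from that of all genes.

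The straight line described these genes poorly. At 18.5 h and 20.5 h the culture had used 98.9% and 100% of its glucose, so the line gave nearly the same value for both. The distance of FBP1 from its line was -1.54 at 18.5 h and 2.08 at 20.5 h. It was -1.59 and 2.09 for ICL1, and -1.59 and 2.15 for PCK1. Without the 18.5 h array 4 of 6 rose, ICL1 with a fitted 3.36, MLS1 3.17, PCK1 3.67 and FBP1 3.58. In that fit 656 of all genes rose. Without the 20.5 h array 0 of 6 rose, beside 804 of all genes. The fitted changes were then 0.25 for ICL1, 0.67 for MLS1, 0.45 for PCK1, 0.52 for FBP1, -0.69 for PYC1 and -0.54 for PYC2.

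Set against the mean of the earlier arrays, a comparison chosen after seeing the data and given with no test, the 20.5 h log2 ratio of PCK1 was higher by 4.03, where the SD over the 5 earlier values was 0.21. For FBP1 the gap was 3.98 (SD 0.25 over 6 earlier values), for ICL1 3.82 (SD 0.18 over 6) and for MLS1 3.34 (SD 0.37 over 5). For PYC1 it was 2.52 (SD 0.57 over 6) and for PYC2 1.74 (SD 0.33 over 6). The earlier values of PYC1 thus varied most among the 6 genes.

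No difference in trend between genes of like role was detected by the exact permutation test over all orders of the arrays (two-sided, 3 pairs, Benjamini-Hochberg adjusted). The fitted change of PYC1 exceeded that of PYC2 by 0.28 ± 0.37 (SE, 7 arrays; p = 0.482, adjusted p = 0.906, exact permutation test). For ICL1 against MLS1 the difference was 0.006 ± 0.34 (6 arrays; p = 0.989, adjusted p = 0.989, exact permutation test), and for PCK1 against FBP1 -0.09 ± 0.17 (6 arrays; p = 0.604, adjusted p = 0.906, exact permutation test). The closest pair array by array was PCK1 and FBP1, whose log2 ratios differed by -0.19 to 0.19 on every array with both values. PYC1 was below PYC2 on 5 of 7 arrays, by up to 0.79 at 11.5 h, and above it by 0.38 at 20.5 h. ICL1 was above MLS1 on 5 of 6 arrays, by 0.66 at 20.5 h, and below it by 0.24 at 18.5 h. The SD between spots of such a difference, taken for 1 spot per gene, was 0.64 at 18.5 h and 0.52 at 20.5 h. The 0.24 and the 0.38 lay within it. Glucose use was 98.9% at 18.5 h and 100% at 20.5 h, so the slope could hardly show a difference in the last step. These tests do not show that the genes act alike.

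The genes whose course was most like each of these were sought by the root-mean-square difference in log2 ratio over the arrays, among genes with a value on all 7, which leaves out MLS1 and PCK1 as candidates. FBP1 was the nearest gene to ICL1, to MLS1 and to PCK1, at 0.24, 0.28 and 0.15, and ICL1 was the nearest to FBP1. Outside the 6, the near genes of the glyoxylate and gluconeogenic enzymes were SIP4, a transcription activator gene, KGD1, a subunit gene of ketoglutarate dehydrogenase, ADY2, which encodes an acetate transporter, and PUT1, which encodes proline oxidase. On the last 2 arrays KGD1 had log2 ratios of 1.35 and 3.24, and ADY2 had 0.83 and 3.001. For PYC1 the nearest genes were IRC15 at 0.39, the amino acid permease gene DIP5 at 0.40 and PYC2 at 0.46. For PYC2 they were the metallothionein gene CUP1-1 at 0.28, PSP1 at 0.30 and IRC15 at 0.30. Of 5239 genes with a value at 20.5 h and at least 5 earlier ones, 5 were within 2-fold of the reference on every earlier array with a value and at least 8-fold above it at 20.5 h, 0.0954% of them, and these were ICL1, MLS1, PCK1, FBP1 and ADY2.

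A wider list of 9 genes held enzymes of the glyoxylate cycle, the entry gene ACS1 and the carrier gene SFC1. It also held IDP2, whose enzyme is not part of the cycle, and the relatives ICL2 and DAL7, which have other jobs. Of the 9 genes, 7 rose, ICL2 and IDP2 among them, and 2 did not pass, beside 19.0% of all tested genes that rose. The median fitted change was 1.90 against 0.03 for all genes. ACS1 encodes an acetyl-CoA synthetase, which makes the fuel of the cycle, and its log2 ratios on the last 3 arrays were -0.18, 1.53 and 4.05. SFC1, the carrier that exchanges succinate for fumarate across the mitochondrial membrane, had 0.19, 1.62 and 4.06 on them. The isozyme gene of ACS1, ACS2, was not on the list and went the other way, at -1.23 at 18.5 h and -0.52 at 20.5 h. The aconitase gene ACO1 was already at 1.26 at 13.5 h and 1.51 at 15.5 h, and reached 1.80 at 18.5 h and 2.90 at 20.5 h.

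CIT2, the peroxisomal citrate synthase gene, had log2 ratios of -0.83, 0.94 and 2.58 on the last 3 arrays. IDP2, for the cytosolic isocitrate dehydrogenase, was at 1.44 and 3.58 on the last 2 arrays, and MDH2, for the cytosolic malate dehydrogenase, at 0.98 and 1.64. At 18.5 h 7 of these 9 genes were above MLS1, the highest of the 6 key genes on that array. Of all genes, 20.0% were at or above MLS1 there. MDH3, a peroxisomal malate dehydrogenase gene, and DAL7 did not pass, with fitted changes of 0.46 ± 0.26 and 0.45 ± 0.35. The median of the 9 was 0.98 at 18.5 h and 2.58 at 20.5 h, against 0.05 and 0.004 over all genes.

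The enzymes that gluconeogenesis opposes went both ways. Of 6 genes for the irreversible glycolytic steps and their control, 4 fell and 2 rose, where 18.4% of all tested genes fell and 19.0% rose. Pyruvate kinase, whose step PCK1 and the pyruvate carboxylases bypass, is encoded by CDC19, which fell by 1.99 ± 0.30, while its isozyme gene PYK2 rose by 1.28 ± 0.30 (6 arrays). The phosphofructokinase genes PFK1 and PFK2, opposite to FBP1, fell by 1.19 ± 0.24 and 1.36 ± 0.28. PFK26 and PFK27 encode enzymes that make fructose 2,6-bisphosphate, an inhibitor of fructose-1,6-bisphosphatase. PFK26 rose by 2.02 ± 0.20 and PFK27 fell by 0.71 ± 0.24. FBP26, the gene for an enzyme that breaks this inhibitor down, was not on the list. It stood at 1.58 at 18.5 h and 1.83 at 20.5 h, where PFK26 was at 1.70 and 1.99. The level of the inhibitor was not measured.

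The phosphofructokinase genes were already low at 18.5 h. The log2 ratio of PFK1 went from 0.13 at 15.5 h to -1.07 at 18.5 h and that of PFK2 from 0.24 to -1.17, on the array where FBP1 was at 0.45. Of 10 genes for the reversible steps that both routes use, 0 rose, 3 fell and 7 did not pass, all 10 with fitted changes below 0 and with a median of -0.35 at 20.5 h. With 18.4% of all tested genes fallen, 3 of 10 is not read as a result about the list. GPM1, the phosphoglycerate mutase gene, fell by 1.38 ± 0.29 (6 arrays), PGI1, the phosphoglucose isomerase gene, by 0.96 ± 0.27 and FBA1, the aldolase gene, by 0.86 ± 0.29.

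**Figure D4:**
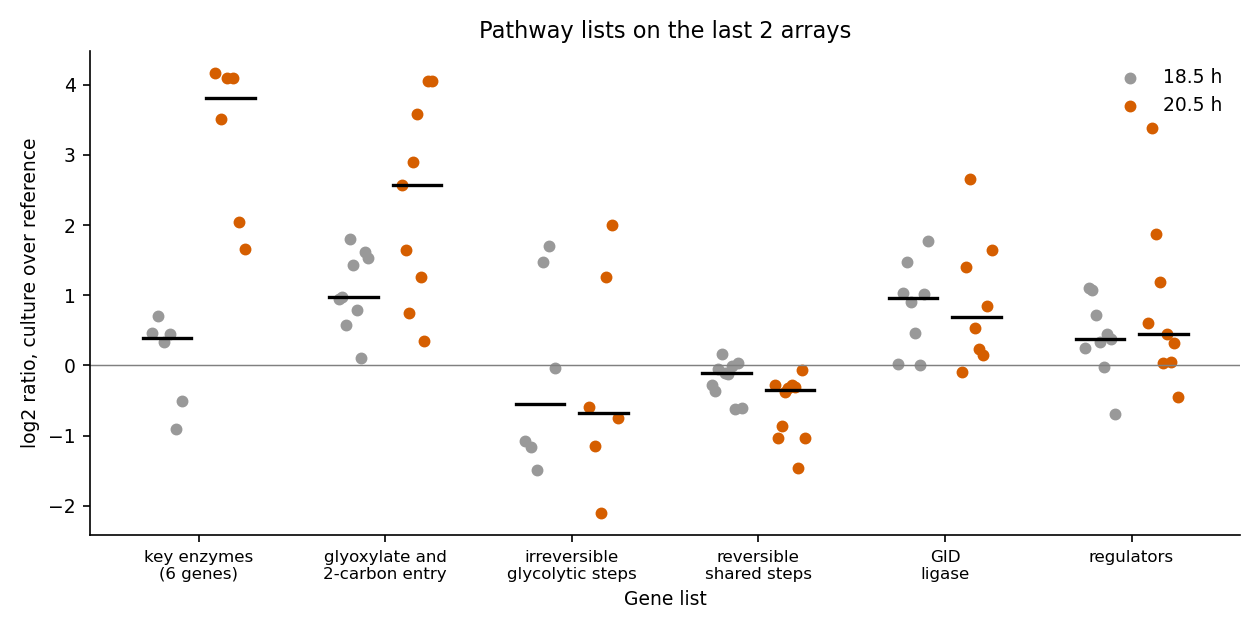
Log2 ratio (vertical axis) of each gene in 6 lists at 18.5 h (grey) and 20.5 h (orange); black lines are medians and each point is 1 gene. The key enzymes lie between -0.91 and 0.70 at 18.5 h and between 1.65 and 4.17 at 20.5 h, while the GID ligase list has medians of 0.96 and 0.69.

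The GID ubiquitin ligase marks fructose-1,6-bisphosphatase, isocitrate lyase and phosphoenolpyruvate carboxykinase for breakdown when glucose is given back. Of 8 genes for its subunits and its ubiquitin-conjugating enzyme, 5 rose and 3 did not pass, where 19.0% of all tested genes rose. UBC8, the conjugating enzyme gene, rose by 2.05 ± 0.44 and stood at 1.47 at 18.5 h and 2.66 at 20.5 h. FYV10 and RMD5, which encode the catalytic subunits, rose by 1.88 ± 0.35 and 1.14 ± 0.38. GID8, a scaffold subunit gene, rose by 1.21 ± 0.28 and VID28 by 0.61 ± 0.18. VID24, for the subunit that recognises the substrates, had a fitted change of 0.48 ± 0.31 and did not pass, nor did VID30 at 0.01 ± 0.19 or GID7 at 0.11 ± 0.21. The median of the list at 18.5 h was 0.96, against 0.05 over all genes, on the array where FBP1, ICL1 and PCK1 stood between 0.34 and 0.46.

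Among 9 regulators of gluconeogenic genes 2 rose and 7 did not pass, a share near the 19.0% of all tested genes that rose. SIP4, an activator that binds the carbon source response element in promoters of this pathway, rose by 2.75 ± 0.51 and went from 0.65 at 15.5 h to 1.11 at 18.5 h and 3.38 at 20.5 h. ADR1, an activator of genes for ethanol and fatty acid use, rose by 1.52 ± 0.30. CAT8, which encodes the main activator of the pathway and acts before SIP4, had a fitted change of 0.46 ± 0.21 and stood at 0.25 at 18.5 h and 0.60 at 20.5 h. SNF1, the kinase gene needed for release from glucose repression, was at 0.03 ± 0.20 and the repressor gene MIG1 at 0.22 ± 0.32.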

How the data were processed

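The deposited values are log2 ratios of 2 channels, 1 array per time point. Per the labels, ScanAlyze 2.41 was used. The sources used here do not give background correction, dye normalization, centring, spot filters or the reason for blanks. The log base was inferred: at the logarithms of ratios from 5 to 35 and their inverses (62 places, matched to 3 decimals) lay 13 values for log2 against 2.13 at neighbouring places, 14 against 13.5 for the natural log and 172 against 148 for log10. Arrays had 6048 to 6342 values of 6400 spots and deposited medians from -0.033 to 0.216. Each array was centred on its median, which is how the deposited offset of the late arrays was removed. Of the spots, 5548 had 1 gene symbol by the platform annotation, 0 had several and 852 had none, and all 5548 matched a RefSeq table (R64 assembly) by Entrez ID. No coordinates are given, since no genome build of the probes was stated. Spots of one gene were averaged.

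Trends were fitted with limma 3.58.1 in R 4.3.3 (lmFit, eBayes) on the arrays with a value for the gene. Of 5470 genes, 5456 had at least 5 values, and 14 were left out. The arrays are samples of one time course and need not be independent, so their p-values can come out too low, and time, OD and glucose cannot be told apart. Pairs of genes were compared with an exact permutation test. The scripts were tested on simulated data. The 6 genes, the 5 pathway lists (42 genes) and the rules were chosen with earlier results of these data known. Genes named beyond the 6 were the 3 with the smallest root-mean-square difference from each and members of lists of 10 or fewer genes. FBP26 and ACS2 fall outside these rules and are given by their late levels only.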

Additional observations from a re-analysis of the deposited data

How the results depend on the processing

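The trend of FBP1 was the only one of the 6 to pass, and it did not pass with quantile normalization (1.44, adjusted p = 0.0904), hours (2.83, adjusted p = 0.137) or log2 OD (2.37, adjusted p = 0.138) in place of glucose use, without the 0 h and 9.5 h arrays (2.57, adjusted p = 0.149) or with robust eBayes (2.30, adjusted p = 0.0591). MLS1 passed with the values as deposited (2.39, adjusted p = 0.0448) and with a step at 0.2 g/L glucose or below (2.07, adjusted p = 0.0284). The number that rose was therefore 2 of 6 in those fits and 0 of 6 in the others named. Quantile normalization left out genes with a blank, MLS1 and PCK1 among them, so its 0 is out of 4. Among all genes, 1367 rose and 773 fell with the values as deposited. With the step at 0.2 g/L or below, 1013 of all genes rose and 1097 fell. A fit of 0 g/L against more rests on 1 array and was chosen because these genes stood apart on it. Any call from it would restate the choice, so only its fitted changes are given. They are the gaps to the mean of the earlier arrays given above, with ICL1 at 3.82, MLS1 at 3.34, PCK1 at 4.03 and FBP1 at 3.98. Over all genes, 1036 rose and 1002 fell, against 241 and 356 with quantile normalization, 240 and 188 with hours, 647 and 541 with log2 OD, 401 and 455 without the 0 h and 9.5 h arrays, and 10 and 4 in the fit of 0 g/L against more.

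Leaving out 1 array gave fitted changes from 0.25 to 3.36 for ICL1, 0.67 to 3.17 for MLS1, 0.45 to 3.67 for PCK1, 0.52 to 3.58 for FBP1, -0.69 to 1.79 for PYC1 and -0.54 to 1.28 for PYC2, in each case lowest without the 20.5 h array and highest without the 18.5 h array. The signs of PYC1 and PYC2 turned without the 20.5 h array. FBP1 passed without the 15.5 h or the 18.5 h array only. MLS1 also passed without the 15.5 h array (2.31, adjusted p = 0.0337). The number of the 6 that rose ranged from 0 to 4 and that of all genes from 656 to 1274, with 678 to 1194 fallen. The difference between PYC1 and PYC2 ranged from -0.15 to 0.51, that between ICL1 and MLS1 from -0.36 to 0.44 and that between PCK1 and FBP1 from -0.23 to -0.009. The sign of ICL1 minus MLS1 also turned with the step at 0.2 g/L (-0.063) and without the 0 h and 9.5 h arrays (-0.020), and that of PCK1 minus FBP1 in the fit of 0 g/L against more (0.039).

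Of 120 recomputed single-array levels, 111 moved by less than the SD between spots and 9 by more, all 9 when the 0 h array was taken as the baseline. Many of the 111 could not have moved by more, so the count says little about robustness. The values as deposited differ only by the array medians, from -0.033 to 0.216, each below the SD between spots of its array. Taking the first spot of a gene could change PYC2 only. No paired analysis was possible because each time point is 1 array. Scanner intensities were not used here, so signal over background is unknown and low ratios cannot be weighed by brightness.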
